A study of Homo sapiens with 2 samples.

Results

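The annexins are a family of calcium-dependent phospholipid-binding proteins, and their transcripts were examined in PC3 cells, a human prostate cancer cell line, after depletion of the transcriptional coactivator SUB1. The members were 10 genes, ANXA1 to ANXA9 and ANXA11, found by gene name on the array. They were represented by 15 of the 41000 gene probes. Of these, 13 probes covering 9 genes passed the filter on dim probes, out of 25673 probes and 19218 genes that passed in all. ANXA9 did not pass.

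Cells received either a non-targeting (Non-T) siRNA or one of 2 siRNA duplexes against SUB1, were transfected again after 24 h, and gave total RNA 72 h after the first transfection. Each SUB1 siRNA was hybridised on 1 two-colour array, with Non-T RNA in Cy3 and SUB1 siRNA RNA in Cy5, and both arrays lay on 1 slide. There was no dye swap and no second array for either siRNA. A ratio of a single array therefore has no replicate error, and a difference between siRNAs is a difference between 2 arrays. PC3 is 1 cell line, no untransfected cells were measured here, and the sequences of the duplexes were not given in the labels. Whether the same Non-T extract was used on both arrays was not stated.

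Annexins share a conserved core of repeats that binds calcium and acidic phospholipids, while their N-terminal tails differ and dock partner proteins. They organise membranes, take part in exocytosis, membrane repair and the control of inflammation, and several are abundant in epithelial cells. ANXA2 is best known for its complex with S100A10, which binds plasminogen and its activators at the cell surface, and ANXA5 for binding the phosphatidylserine exposed on dying cells.

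SUB1 itself had log2 ratios (SUB1 siRNA over Non-T) of -3.30 with siRNA 1 and -3.26 with siRNA 2. Probes spotted 10 times, 209 of them, gave the technical error of a ratio. For siRNA 1 these probes had a median SD of 0.0781 with 95% of them under 0.137, and for siRNA 2 a median of 0.0741 with 95% under 0.125. This error covers spots of one hybridisation only and leaves out the spread between cultures. Of the markers of the cell line, every probe for the epithelial genes KRT8, KRT18, KRT19 and EPCAM was well above background in the Non-T channel, whereas TMPRSS2, the leukocyte gene PTPRC and the endothelial gene VWF were not on either array. Of 3 probes for KLK3, 1 was bright, with a Non-T intensity of 18630 on the siRNA 1 array, and the others were not well above background. Probes for the leukocyte gene CD3E, the endothelial gene PECAM1 and the fibroblast genes DCN and LUM were well above background on at least 1 array. They were dim, the highest at an intensity of 152.2. Among the epithelial probes, a KRT8 probe at 132.8 and a KRT18 probe at 122.3 on the siRNA 1 array were dim as well.

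At the 2-fold cut, the decreases within the family fell on different members with each siRNA. ANXA2 and ANXA7 were at least 2-fold lower with siRNA 1, and ANXA5 was at least 2-fold lower with siRNA 2. Below that cut the members overlapped, since ANXA1, ANXA2, ANXA3, ANXA7 and ANXA11 had ratios below 0 with both siRNAs. How many of all genes passed the cut with both siRNAs was not counted. None of the 9 measured annexins was at least 2-fold higher with either siRNA. The count of 2 of 9 with siRNA 1 stands beside 0.609% of all genes that were at least 2-fold lower there, and the count of 1 of 9 with siRNA 2 beside 1.07%. Among all genes, 0.208% were at least 2-fold higher with siRNA 1 and 0.614% with siRNA 2. The members were chosen with earlier results of these data known, so the counts describe the family and are no test of enrichment. These ratios had no replicate check. When the arrays were centred on the median without loess, ANXA7 with siRNA 1 and ANXA5 with siRNA 2 were at -0.85 and -0.90 on the log2 scale and no longer past 2-fold, and the siRNA 2 ratio of ANXA2 turned to 0.30.

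**Figure D1:**
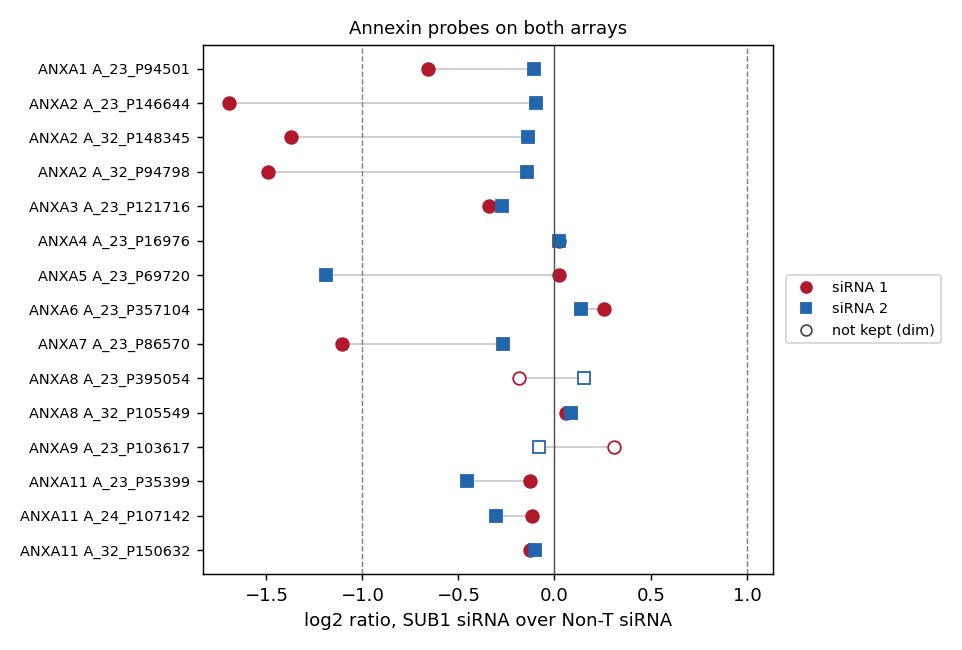
Log2 ratio of each of the 15 annexin probes, SUB1 siRNA over Non-T siRNA, with siRNA 1 as circles and siRNA 2 as squares; open symbols are the 2 probes that did not pass the filter and dashed lines mark 2-fold. All 3 ANXA2 probes and the ANXA7 probe lie beyond the line with siRNA 1 only, and the ANXA5 probe with siRNA 2 only.

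ANXA2 showed the largest decrease of the family with siRNA 1. Its brightest probe (A_32_P94798, NM_001002857, chr15:58427038-58427097, minus strand, hg18) had background-uncorrected spot intensities of 29150 for Non-T and 14156 for siRNA 1 on the first array. On the second array the intensities were 23960 for Non-T and 30623 for siRNA 2. The knockdown channel was thus the dimmer one with siRNA 1 and the brighter one with siRNA 2, and the red channel ran brighter than the green at this signal on both arrays, which the loess step adjusts.

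After normalisation the ratio of this ANXA2 probe was -1.49 on the log2 scale with siRNA 1, a 2.81-fold decrease that left 35.6% of the Non-T signal. With siRNA 2 it was -0.14, or 90.5% of the Non-T signal. The difference, siRNA 2 minus siRNA 1, was 1.35. In rank, ANXA2 had the 20th lowest ratio of 19218 genes with siRNA 1 and the 37th highest difference.

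The other two ANXA2 probes lay nearby on the same strand. A_32_P148345 (chr15:58426880-58426939) had intensities of 912.8 for Non-T and 412.78 for siRNA 1, against 862.92 for Non-T and 937.29 for siRNA 2, which gave log2 ratios of -1.37 and -0.14. A_23_P146644 (chr15:58427172-58428616), whose placement spans 1445 genomic bases and so crosses an intron, had intensities of 18881 for Non-T and 7759.5 for siRNA 1, against 15470 for Non-T and 19967 for siRNA 2. The log2 ratios there were -1.69 and -0.10. All 3 probes were more than 2-fold lower with siRNA 1 and 1.07- to 1.11-fold lower with siRNA 2.

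Of these ANXA2 probes, 2 are annotated in the array files to a pseudogene as well, A_23_P146644 to ANXA2P1 (NR_001562) and A_32_P148345 to ANXA2P3 (NR_001446), while the accessions given for A_32_P94798, of which the files list at most 4 per probe, include no pseudogene. The pseudogenes have probes of their own. ANXA2P1 had log2 ratios of -1.92 with siRNA 1 and -0.38 with siRNA 2, and ANXA2P3 had -1.54 and -0.09. Because these copies are near-identical to the parent gene, the signals of ANXA2 and its pseudogenes cannot be told apart by these probes. A further pair of probes carries sequence clusters that the files describe as partial annexin A2 and were picked after their values were seen. THC2596442 had log2 ratios of -1.47 and -0.16, and THC2556753 (chr15:58435334-58435393, the strand of ANXA2) had -0.84 and -0.10. The latter was dim, with intensities of 280.15 and 163.44 on the siRNA 1 array.

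**Figure D2:**
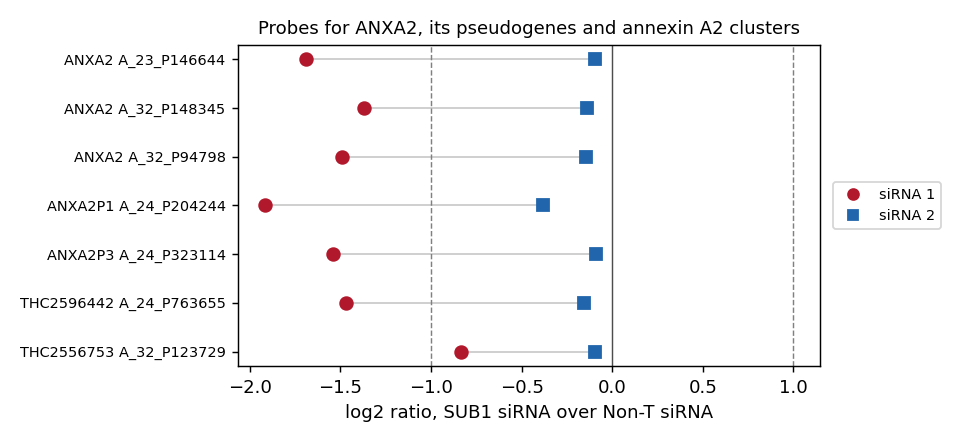
Log2 ratio, SUB1 siRNA over Non-T siRNA, of the 3 ANXA2 probes, the probes of the pseudogenes ANXA2P1 and ANXA2P3, and 2 clusters described as partial annexin A2 (circles, siRNA 1; squares, siRNA 2; dashed lines, 2-fold). With siRNA 1 the values run from -1.92 to -0.84, and with siRNA 2 from -0.38 to -0.09.

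ANXA7, also called synexin, promotes membrane fusion and has been studied as a tumour suppressor in prostate cancer. Its single probe (A_23_P86570, NM_004034, chr10:74805318-74805377, minus strand) had intensities of 3990.6 for Non-T and 2307.9 for siRNA 1. On the second array they were 3194.3 for Non-T and 3344.8 for siRNA 2. The log2 ratio was -1.10 with siRNA 1, a 2.15-fold decrease, and -0.27 with siRNA 2. ANXA7 was thus below Non-T on both arrays, though at 0.01 with siRNA 2 when centred on the median, with a difference of 0.84 between them that was under 2-fold. It had the 84th lowest ratio with siRNA 1.

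An expressed sequence tag that the files call similar to annexin VII, AI922845 (chr10:74805721-74805780), lay on the opposite strand to the ANXA7 probe and was named after its values were seen. The ratios of this tag were -0.32 and -0.14 on the log2 scale.

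ANXA5 followed the reverse order. Its single probe (A_23_P69720, NM_001154, chr4:122808929-122808988, minus strand) had intensities of 5547.4 for Non-T and 7217.1 for siRNA 1. On the second array they were 4654.1 for Non-T and 2583.0 for siRNA 2. The log2 ratio was 0.02 with siRNA 1 and -1.19 with siRNA 2, a 2.28-fold decrease that left 43.9% of the Non-T signal. The difference, siRNA 2 minus siRNA 1, was -1.21. ANXA5 had the 116th lowest ratio with siRNA 2 and the 57th lowest difference of 19218 genes.

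The channels were also set side by side after the average intensities of both arrays had been quantile-scaled. The Non-T signal of ANXA2 (A_32_P94798) differed by -0.03 on the log2 scale between the arrays, and the knockdown signal by 1.32. For ANXA7 the Non-T signal differed by -0.08 and the knockdown signal by 0.75. For ANXA5 the corresponding differences were -0.04 and -1.25. Across all genes the SD of this difference between arrays was 0.117 in the Non-T channel and 0.313 in the knockdown channel. The contrast between siRNAs for ANXA2, ANXA5 and ANXA7 therefore lay in the Cy5 channel.

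**Figure D3:**
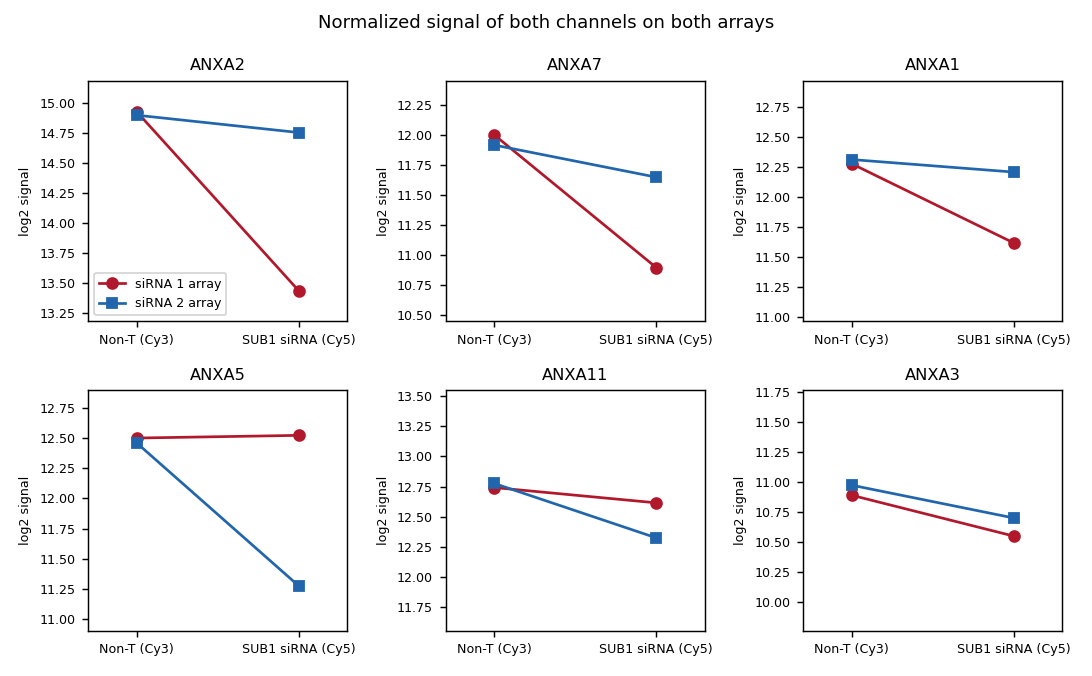
Normalised log2 signal of 6 annexins (brightest probe) in the Non-T channel (Cy3) and the SUB1 siRNA channel (Cy5) of the siRNA 1 array (circles) and the siRNA 2 array (squares); every panel spans 2 log2 units. The Non-T points of both arrays nearly coincide, and the knockdown points separate most for ANXA2 and ANXA5, by 1.32 and -1.25.

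Between siRNAs, ANXA2 was the only one of the 9 annexins lower with siRNA 1 than with siRNA 2 by at least 2-fold, beside 0.65% of all genes. ANXA5 was the only one lower with siRNA 2 than with siRNA 1 by at least 2-fold, beside 0.609% of all genes. These counts too describe a family chosen with earlier results known. ANXA2 and ANXA5 are on different chromosomes. The ratio was below 0 in 5 of 9 annexins with siRNA 1, where 45.9% of all genes were, and in 6 of 9 with siRNA 2, where 46.4% were. The median annexin ratio was -0.13 with siRNA 1 and -0.14 with siRNA 2, and the median of all genes was 0.02 with each. The dim ANXA8, for which no direction is given below, counts as above 0 here and enters the medians.

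**Figure D4:**
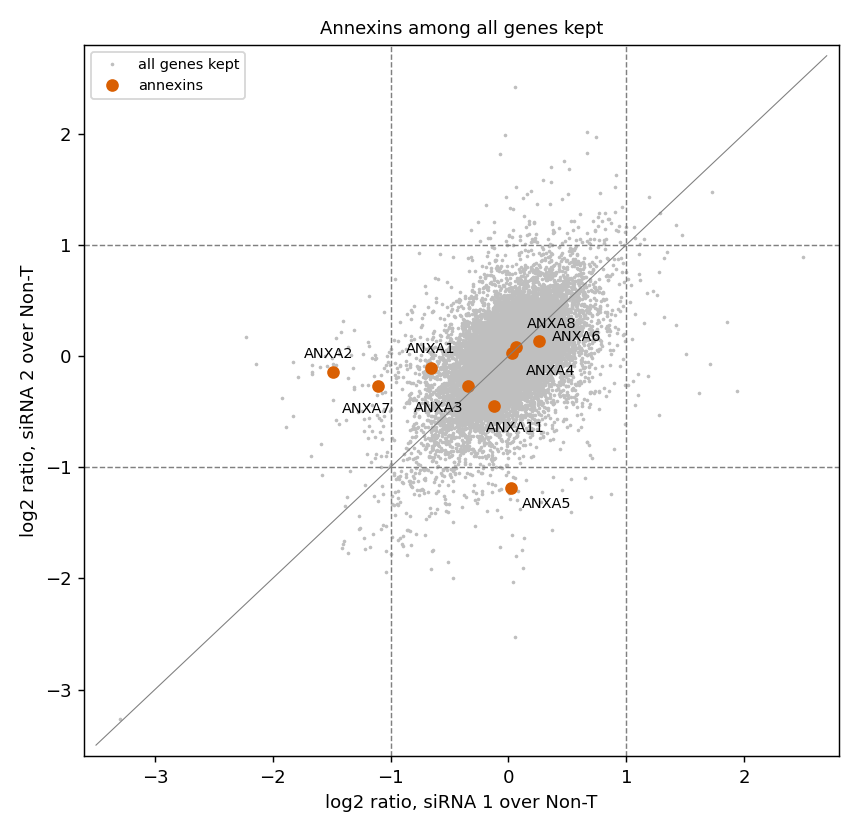
Log2 ratio with siRNA 2 against log2 ratio with siRNA 1 for 19218 genes (grey) and the 9 measured annexins (orange); dashed lines mark 2-fold and the solid line equal ratios. ANXA2 and ANXA7 lie left of the 2-fold line near the horizontal zero, ANXA5 lies below the 2-fold line at a siRNA 1 ratio of 0.02, and the other annexins lie within 2-fold with both.

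The windows upstream of ANXA2, ANXA7 and ANXA5 are shown because these were the members past 2-fold. They are the 250 bases before the RefSeq start of each gene (GRCh38.p14, all on the minus strand, written 5′ to 3′ in transcript direction). Capitals mark matches to 3 motifs on either strand. TATAAA is the core of a TATA box. CCAAT is the box bound by NF-Y and reads ATTGG where it lies on the opposite strand. GGGCGG is the GC box bound by SP1 and reads CCGCCC where it lies on the opposite strand.
ANXA2 (chr15:60397987-60398236): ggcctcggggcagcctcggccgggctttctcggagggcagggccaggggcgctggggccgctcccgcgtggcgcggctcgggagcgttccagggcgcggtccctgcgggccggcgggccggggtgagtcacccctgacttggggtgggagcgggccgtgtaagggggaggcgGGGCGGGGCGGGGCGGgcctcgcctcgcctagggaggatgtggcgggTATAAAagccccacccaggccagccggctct
ANXA7 (chr10:73414059-73414308): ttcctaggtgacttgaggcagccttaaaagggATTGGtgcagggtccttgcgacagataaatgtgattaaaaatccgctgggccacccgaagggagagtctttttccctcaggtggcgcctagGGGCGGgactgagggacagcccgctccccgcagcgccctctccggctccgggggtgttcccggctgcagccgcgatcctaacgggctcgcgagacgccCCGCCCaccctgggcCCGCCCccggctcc
ANXA5 (chr4:121696981-121697230): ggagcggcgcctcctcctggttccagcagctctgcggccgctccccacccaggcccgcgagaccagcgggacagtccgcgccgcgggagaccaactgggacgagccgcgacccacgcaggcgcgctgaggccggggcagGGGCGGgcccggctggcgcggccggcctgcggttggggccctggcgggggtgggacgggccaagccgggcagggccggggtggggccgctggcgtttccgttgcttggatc

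The ANXA2 window held 1 TATAAA close to its end and a run of 3 GGGCGG in which neighbouring copies share a base. The ANXA7 window held 1 CCAAT and 3 GGGCGG, and the ANXA5 window 1 GGGCGG and neither of the other motifs. GC content was 78.0% for ANXA2, 66.0% for ANXA7 and 78.8% for ANXA5, where the median over 35116 windows of this length was 58.0%. Of all these windows, 10.7% held TATAAA, 32.0% CCAAT and 42.6% GGGCGG. Of the 10 annexins, 9 were in the RefSeq promoter table, with 13 windows. Over these 13 the median GC content was 65.6%, and 23.1% held TATAAA, 30.8% CCAAT and 53.8% GGGCGG. The windows of ANXA4, which was not past 2-fold, had GC contents of 77.2% and 71.6%, so a high GC content was not particular to the lowered members. A match is a description of letters only.

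The remaining members moved by less than 2-fold. ANXA1, the glucocorticoid-induced annexin whose N-terminal peptides act on formyl peptide receptors, had intensities of 4808.4 for Non-T and 3836.8 for siRNA 1, and of 4179.2 for Non-T and 4971.3 for siRNA 2 (A_23_P94501, NM_000700, chr9:74974822-74974881, plus strand). Its log2 ratios were -0.66 and -0.10, so the decrease was 1.58-fold with siRNA 1, and the siRNA 2 ratio turned to 0.20 under median centring. ANXA1 thus had the same order of siRNAs as ANXA2 and ANXA7, at a smaller size, with the 416th lowest ratio with siRNA 1. A cluster described as partial annexin A1 on the opposite strand, THC2565151, was near background and had log2 ratios of -0.14 and -0.002.

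ANXA11, which tethers RNA granules to lysosomes and acts in cytokinesis, had ratios below 0 with both siRNAs, though with siRNA 1 the value was 0.18 under median centring and 0.01 in the deposited log2 ratios. Its brightest probe (A_23_P35399, NM_145869, chr10:81905609-81907396) had intensities of 6464.1 for Non-T and 7633.3 for siRNA 1. On the second array they were 5726.2 for Non-T and 5410.8 for siRNA 2. The log2 ratios were -0.13 and -0.45. The dimmer A_24_P107142 gave -0.12 and -0.30, and the dimmest, A_32_P150632, gave -0.13 and -0.10. The probes thus gave like ratios with siRNA 1 and ratios between -0.45 and -0.10 with siRNA 2.

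ANXA3 was the member whose decrease was nearly equal with both siRNAs (A_23_P121716, NM_005139, chr4:79744519-79750234). Its intensities were 1866.7 for Non-T and 1794.5 for siRNA 1, and 1687.1 for Non-T and 1708.8 for siRNA 2. The log2 ratios were -0.34 and -0.27, and they differed by 0.07, less than the median SD between spots. ANXA4, an annexin of polarised epithelia (A_23_P16976, NM_001153, chr2:69906253-69906312), had log2 ratios of 0.03 and 0.02. ANXA6, which carries a duplicated core (A_23_P357104, NM_001155, chr5:150463327-150463386), was dim, with intensities between 136.25 and 169.71, and had log2 ratios of 0.26 and 0.14.

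ANXA8 and ANXA9 were at or near background. Of the ANXA8 probes, A_32_P105549 (chr10:47232965-47233024) was well above background only in the Cy5 channel of both arrays and had intensities between 75.603 and 93.85. Its log2 ratios were 0.06 and 0.08, against -0.47 with each siRNA in the deposited log2 ratios, -0.05 with siRNA 1 under median centring and 1.14 with siRNA 1 in the processed signals of Feature Extraction, so no direction is given. The other ANXA8 probe, A_23_P395054, was not well above background in any channel. The array also holds a pair of probes for LOC728449, which the files describe as annexin A8 and place close by on chromosome 10. These were named after their values were seen. The brighter one (A_24_P135628, chr10:47239439-47239498) had intensities of 2451.9 for Non-T and 3732.8 for siRNA 1, and of 1709.0 for Non-T and 2392.7 for siRNA 2, with log2 ratios of 0.30 and 0.18. The dimmer one gave 0.40 and 0.43. ANXA9, an annexin without the usual calcium-binding residues, was not well above background in any channel (A_23_P103617, NM_003568, chr1:149234007-149234066), with intensities between 71.109 and 89.344.

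Of the annexins outside the member list, ANXA10 (A_23_P58328, NM_007193, chr4:169345139-169345198) had intensities of 468.82 for Non-T and 247.18 for siRNA 1, and of 402.95 for Non-T and 457.97 for siRNA 2. The log2 ratio was -1.13 with siRNA 1 and -0.03 with siRNA 2, an order of siRNAs like that of ANXA2. Neither ANXA13 probe was well above background in any channel.

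The genes with ratios closest to those of ANXA2, by Euclidean distance over both arrays, were THC2596442 at a distance of 0.0248, AK025353 at 0.072, ANXA2P3 at 0.0738, LOC343851 at 0.0743 and LOC649303 at 0.117. The first and the third carry annexin A2 sequence. The other three are described in the files as similar to ribosomal protein S10, with log2 ratios between -1.60 and -1.46 for siRNA 1 and between -0.10 and -0.07 for siRNA 2. Likeness here rests on 2 arrays.

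The mean of both siRNAs was tested against 0 with limma across all genes. On simulated data this test recovered 0% of genes changed by 1 on the log2 scale and 99.5% of those changed by 2. Every annexin mean was smaller than 1, and a gap between the siRNAs enters the error. The test could therefore hardly call an annexin, and no conclusion is drawn from its outcome. None of the 9 annexins passed after Benjamini-Hochberg adjustment, beside 0.0052% of all genes, a single gene, SUB1. ANXA3 and ANXA7 had unadjusted p-values under 0.05, as 4013 of the 19218 genes did. The mean log2 ratio of ANXA3 was -0.31 ± 0.10 (SE, n = 2 arrays, limma adjusted p = 0.193), that of ANXA7 -0.69 ± 0.22 (limma adjusted p = 0.198) and that of ANXA2 -0.82 ± 0.33 (limma adjusted p = 0.260). For ANXA5 it was -0.58 ± 0.30 (limma adjusted p = 0.336).

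The partners of annexins were examined from a list of 19 genes, of which 18 were measured. Of these, 0 were at least 2-fold lower with siRNA 1 (0.609% of all genes) and 1 was higher (0.208%), whereas 1 was at least 2-fold lower with siRNA 2 (1.07%) and 0 were higher (0.614%). These counts rest on the brightest probe of each gene. The probes of AHNAK, a scaffold of the ANXA2 complex named after its values were seen, disagreed. The brightest of 5 had log2 ratios of 0.04 and -0.36, and A_23_P21363 had -1.17 and -0.78. The median partner ratio was 0.001 with siRNA 1 and -0.17 with siRNA 2. None passed the adjusted limma test and 10 of the 18 had unadjusted p-values under 0.05, beside 4013 of all 19218 genes.

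None of the 6 EF-hand partners was 2-fold from Non-T with either siRNA, and their log2 ratios ran from -0.47 to 0.78. S100A10, the light chain of the ANXA2 complex, had intensities of 20207 for Non-T and 31686 for siRNA 1, and of 16235 for Non-T and 23720 for siRNA 2. Its log2 ratios were 0.19 and 0.07, against -1.49 and -0.14 for ANXA2. S100A11, a ligand of the ANXA1 tail, had 0.26 and 0.45. PDCD6, which binds ANXA7 and ANXA11, had 0.45 and 0.36, and SRI (sorcin), a partner of ANXA7, had -0.26 and -0.47, with a dimmer SRI probe at 0.19 and 0.04. The EF-hand proteins S100A6 and S100A4 were named after their values were seen. S100A6 had 0.59 and 0.78, the highest ratios of the 6 with both siRNAs, and S100A4 had 0.22 and -0.16.

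Among the proteases and receptors, PLAU, the urokinase that activates plasminogen, was 3.60-fold lower with siRNA 2. Its probe was spotted 10 times, with mean intensities of 31098 for Non-T and 29876 for siRNA 1, and of 27761 for Non-T and 10609 for siRNA 2. The log2 ratios were -0.51 (SD between spots 0.0735) and -1.85 (SD between spots 0.0772), and like ANXA5, PLAU was lower with siRNA 2 than with siRNA 1 by more than 2-fold. PLAT, the tissue plasminogen activator that binds ANXA2, and PLAUR, the urokinase receptor, were named after their values were seen and had lower values with both siRNAs, within 2-fold. The log2 ratios of PLAT were -0.68 and -0.64, and those of PLAUR were -0.68 and -0.53. FPR1, a receptor for ANXA1 peptides, was dim and had -0.34 and -0.29, and FPR2 did not pass the filter.

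PRKCA, the calcium-dependent protein kinase C alpha, was 2.11-fold higher with siRNA 1 by its brighter probe (A_24_P916496). Its intensities were 654.09 for Non-T and 1623.6 for siRNA 1, and 587.72 for Non-T and 508.38 for siRNA 2. The log2 ratios were 1.08 and -0.44. The dimmer PRKCA probe, near background and spotted 10 times, gave -0.07 and -0.14, so the probes disagreed with siRNA 1.

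**Figure D5:**
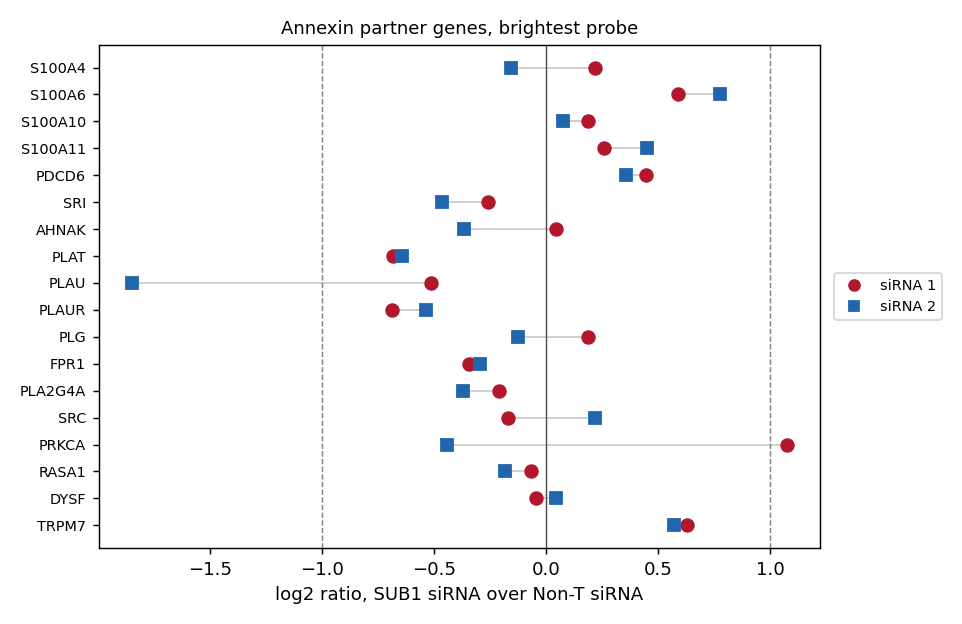
Log2 ratio, SUB1 siRNA over Non-T siRNA, of the 18 measured partner genes (brightest probe of each; circles, siRNA 1; squares, siRNA 2; dashed lines, 2-fold). PLAU with siRNA 2 at -1.85 and PRKCA with siRNA 1 at 1.08 are the values beyond 2-fold.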

How the data were processed

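The measurements were two-colour Agilent whole human genome arrays of PC3 cells, 1 per SUB1 siRNA. The authors scanned them and deposited spot intensities extracted with Feature Extraction 9.5.1.1, together with a table of processed log2 ratios in which loess had been applied to each array; probe positions are given on hg18. From the deposited mean intensities, with the median local background, ratios were computed in limma 3.58.1 (R 4.3.3). Background was corrected by normexp with an offset of 50, loess was run within each array at a span of 0.3, control spots and outlier spots were left out, and spots of a probe were averaged. Probes were kept where at least 0.5 of their spots were well above background in a channel on both arrays, and the brightest probe stood for a gene. Names were taken through the RefSeq table (13129 of 19218 genes) and otherwise from the files. The filter, a fold of 2 for calls and limma (lmFit, eBayes, Benjamini-Hochberg) were applied to all genes, and the fit leaves out the spread of the control. The scripts were tested on simulated data. On each array, the share of spots well above background was 54.3% in Cy3 and 64.5% to 67.2% in Cy5. With 1 array per siRNA the precision is limited by the number of arrays. The loess assumes that most genes are alike in both channels, and with 1 dye orientation a probe-specific dye bias stays in every ratio. The members, the partner list and the rule for named genes were chosen with earlier results of these data known. The rule took all annexins on the array, SUB1, partners past 2-fold and the 5 genes nearest to ANXA2. It also took S100A10, S100A11, PDCD6, SRI and the FPR genes whatever their value. The alternatives were other background corrections, centring, signals, filters, probe choices and limma settings. A marker gene of the cell line check is not reported here.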

Additional observations from a re-analysis of the deposited data

Results flagged for a closer look

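ANXA5 was close to Non-T with siRNA 1 and lower with siRNA 2, and drew notice because the signs of its ratios differed. Its log2 ratio was 0.02 with siRNA 1 and -1.19 with siRNA 2, a difference of -1.21. With 1 array per siRNA the difference was not tested, and the siRNA 1 value is smaller than the SD between spots.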

How the results depend on the processing

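Of 408 comparisons of a result with an alternative, 370 were unchanged in sign and in whether they passed 2-fold or the limma threshold, or, for the median of a list, moved by at most 0.1, and none reversed a call. Some comparisons could not differ. ANXA1, ANXA3, ANXA4, ANXA5, ANXA6 and ANXA7 each have 1 probe. For them, averaging probes, both other filters and keeping outlier spots returned the main value and count as unchanged. The gap between siRNAs was the steadier quantity over 10 settings, these included. It ran from 1.27 to 1.40 for ANXA2, from -1.25 to -1.17 for ANXA5 and from 0.83 to 0.90 for ANXA7. When arrays were centred on the median and not loess-corrected, the median over all genes became 0.127 and 0.119. Among genes past 2-fold, 71% were then higher for siRNA 1 (25.5% after loess) and 72.5% for siRNA 2 (36.5% after loess). Under it ANXA7 was at -0.85 with siRNA 1 and ANXA5 at -0.90 with siRNA 2, which left 1 annexin at least 2-fold lower with siRNA 1 and 0 with siRNA 2. Of the 19218 genes, 56 were at least 2-fold lower with siRNA 1 then and 101 with siRNA 2. The annexin median with siRNA 2 was 0.0158, and the siRNA 2 ratios of ANXA1 (0.20), ANXA2 (0.30) and ANXA7 (0.01) were above 0. The siRNA 1 ratio of ANXA11 was 0.18 there and 0.01 in the authors' table. Under median centring, partners at least 2-fold higher came to 2 with siRNA 1 and 1 with siRNA 2, beside 137 and 266 of the 19218 genes. With the processed signals of Feature Extraction, 1 annexin was at least 2-fold higher with siRNA 1, the dim ANXA8 at 1.14, beside 778 of the 19218 genes. Among genes past 2-fold, 72.3% were higher with siRNA 1 there and 67.7% with siRNA 2. Under these signals, 2 annexins were lower with siRNA 2 than with siRNA 1 by at least 2-fold, a count not made there over all genes. At least 2-fold lower with siRNA 2 were 2 partners, beside 474 of the 19218 genes. In the authors' log2 ratios the annexin median with siRNA 1 was -0.33, and under the stricter filter it was -0.23. The dim ANXA8 was at -0.47 with siRNA 1 in the former and was not kept under the latter, which left 8 annexins. Among genes past 2-fold in the authors' ratios, 36.7% were higher with siRNA 1 and 47.4% with siRNA 2. Averaging all probes of a gene left 0 partners at least 2-fold higher with siRNA 1, beside 35 of the 19218 genes, and 1 lower with siRNA 2 than with siRNA 1. PRKCA, past 2-fold in both ways in the main setting, has a dimmer probe at -0.07 and -0.14. Beyond these values, the causes of the shifts were not tested. No annexin passed the limma test in any of 13 settings, where 0 to 5 had an unadjusted p under 0.05 and the lowest adjusted p ranged from 0.172 to 0.260. No paired analysis was possible because each siRNA has 1 array, so leaving one out ends the test. Values near background, as for ANXA6, ANXA8 and ANXA9, are limited by signal over background.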

Other observations

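The gene that the array names C5orf39 is ANXA2R in the RefSeq table, matched by its accession NM_001014279. The files describe it as similar to the annexin II receptor. It was singled out after its values were seen. Its intensities were 576.46 for Non-T and 1089.6 for siRNA 1, and 495.11 for Non-T and 1196.7 for siRNA 2. The log2 ratios were 0.70 and 1.05, so ANXA2R was higher than Non-T on both arrays. It was past 2-fold with siRNA 2, where 0.614% of all genes were at least 2-fold higher. ANXA2 had -1.49 and -0.14, and its siRNA 2 ratio was 0.30 under median centring, so its direction there is not settled.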
